A study of Mus musculus and Mus musculus
Rattus norvegicus with 30 samples.

Results

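RMES cells are allodiploid embryonic stem cells made by fusing haploid ES cells of mouse and rat, so each cell carries 1 mouse and 1 rat copy of most genes. Their RNA-seq reads were divided between the genomes, and the counts of the rat genome are described here for cells overexpressing Cdx2. The comparison holds 4 of the 30 samples of the series: 2 libraries of wild-type RMES cells (WT, replicates 1 and 2), 1 library of RMES cells overexpressing mouse Cdx2 (mCdx2-OE) and 1 overexpressing rat Cdx2 (rCdx2-OE). The induced libraries were pooled as Cdx2-OE and set against WT, as the study did. RMES cells were cultured with a MEK inhibitor, a GSK3 inhibitor and LIF. The transgenes were stable, and the study induced them with DOX (doxycycline) before the cells were collected. Whether WT cells also received DOX is not stated in the sources used here. No other allele or agent is named for these libraries. The labels name neither an uninduced transgenic control nor the number of clones behind a library, and each construct is represented by 1 library. Of the 25245 genes counted on the rat genome, 35 mitochondrial genes were left out (13 named with the prefix Mt- and 22 transfer and ribosomal RNA genes of the same contig). Of the remaining 25210 genes, 19081 had a count and 14620 passed the filter on low counts.

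Cdx2 is a homeodomain factor of the caudal family. In the early embryo it acts in the trophectoderm, the outer layer that forms the placenta, where it represses the pluripotency programme, and later it patterns the posterior body through Hox genes and specifies the intestinal epithelium. Cdx1 and Cdx4 are its paralogs, and in the primitive streak all 3 are targets of Wnt signalling. In mouse ES cells, forced Cdx2 is a classical way to obtain trophoblast-like cells.

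The libraries differed in more than the transgene. Rat mitochondrial genes took 14.3% of rat-genome counts in mCdx2-OE and 14.0% in rCdx2-OE, against 0.00594% and 0.00777% in the WT libraries. On the mouse genome the order was opposite, with 2.32% and 2.65% in WT and 0.0313% and 0.0259% in the induced libraries. The WT libraries thus held almost only mouse mitochondrial transcripts and the induced libraries almost only rat ones, and a difference between cell lines and the effect of Cdx2 cannot be told apart in any value below. Without mitochondrial genes, the rat-genome counts were 29451663 to 32197830 per library, and 44.4% to 45.6% of all nuclear counts were assigned to the rat genome. The variance between the WT libraries was 2.05 times that of read sampling alone for the median gene, and 5.15 times between mCdx2-OE and rCdx2-OE. No source states that the WT replicates were separate cultures, so p-values measure the spread between these libraries.

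Cdx2 itself was first examined in every library. Rat-genome Cdx2 counts were 12384 and 13178 in WT, 1770 in mCdx2-OE and 33680 in rCdx2-OE, and mouse-genome counts were 4187 and 4541 in WT, 40590 in mCdx2-OE and 186 in rCdx2-OE. Each induced library was thus high for the species of its own construct and low for the other species. Because reads of the rat transgene fall on the rat gene, the rat count of rCdx2-OE sums transgene and endogenous transcripts. That of mCdx2-OE holds endogenous rat transcripts and any reads of the mouse transgene assigned to the rat genome. The part of such reads was not tested. In CPM, which are counts scaled to the normalised library size, the rat gene was at 482 ± 10.0 in WT (SD, n = 2), 50.9 in mCdx2-OE and 948 in rCdx2-OE. The pooled log2 fold change of 0.05 (SE 0.67, adjusted p = 0.945) compares the mean level of the induced libraries with WT. It hides opposite log2 values of -3.24 in mCdx2-OE and 0.98 in rCdx2-OE, whose average with the constructs as separate groups was -1.13. Rat Cdx1 was counted 1987 and 2032 times in WT, 149 times in mCdx2-OE and 97 times in rCdx2-OE, a log2 fold change of -4.44 (SE 0.13, adjusted p = 1.85e-13). Rat Cdx4 was counted 90, 124, 44 and 27 times in the same order, with a log2 fold change of -1.99 (SE 0.27, adjusted p = 5.93e-06). WT and induced libraries did not overlap for either paralog, and both paralogs were also lower on the mouse allele, with log2 fold changes of -3.98 for Cdx1 and -3.13 for Cdx4.

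Across the rat genome, 6217 of 14620 tested genes (42.5%) were called changed at an adjusted p under 0.05 and more than 2-fold. Of these, 4148 (28.4% of tested genes) were higher and 2069 (14.2%) were lower in Cdx2-OE cells, so 66.7% of the calls were higher. Scaling by library totals alone, without TMM, raised that share to 83.3%, with 5316 genes higher and 1065 lower, and moved the median of all log2 fold changes by 0.43. Upper-quartile scaling moved it by 0.21 and gave a share of 75.8%. The median log2 fold change of all tested genes was 0.07, that of the higher genes 2.51 and that of the lower genes -1.47. More than 8-fold changes numbered 1615 among the higher genes and 218 among the lower ones. In 815 of the higher genes neither WT library had more than 3 counts, and in 84 of the lower genes neither induced library did. WT and Cdx2-OE libraries did not overlap for 91.4% of tested genes, so groups that do not overlap are the rule here. Members of gene lists below are read against these shares and this median, which differ for abundant genes as given below.

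**Figure D1:**
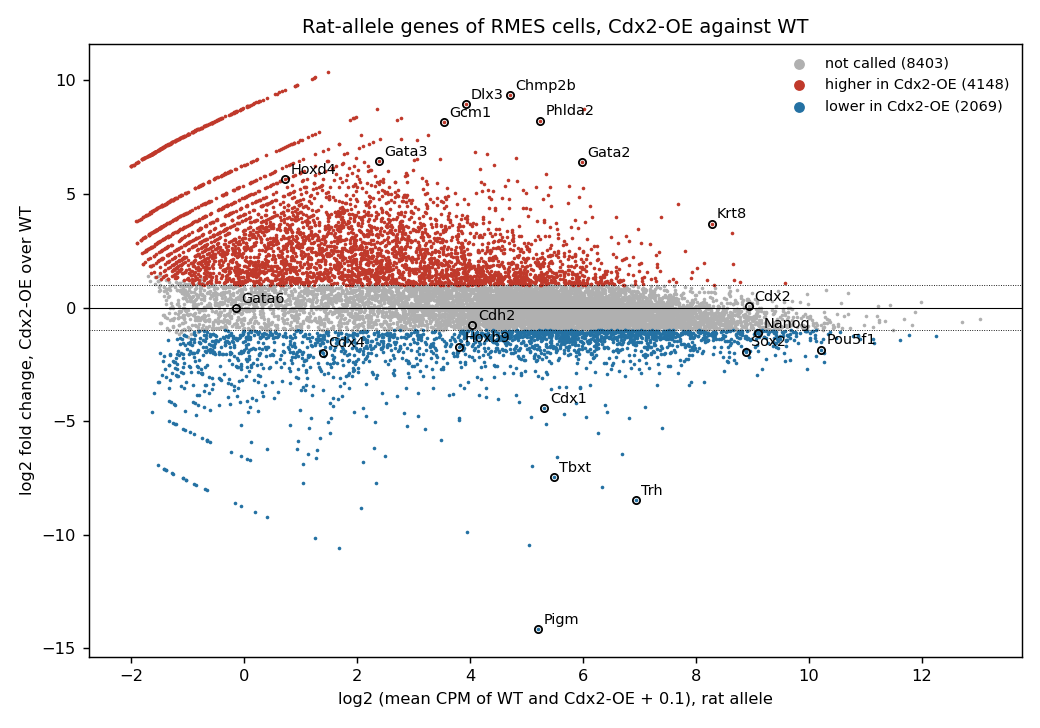
Log2 fold change of Cdx2-OE over WT (vertical axis) against the log2 mean CPM of both groups plus 0.1 (horizontal axis) for 14620 rat-allele genes, 1 point per gene, red for the 4148 genes called higher, blue for the 2069 called lower and grey for the rest; dotted lines mark 2-fold. Most of the large changes are rises of genes with low counts, while Pou5f1, Sox2 and Nanog lie below the dotted line among the most abundant transcripts, and the slanted streaks are genes with almost no counts in 1 group.

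The fold change also moved with annotated gene length. For the 2929 shortest tested genes (57 to 1350 bases) the median log2 fold change was -0.35 and 28.1% were called lower. For the 2924 longest (4025 to 29464 bases) the median was 0.30 and 6.74% were called lower. When only genes averaging 1000 counts or more were kept, the medians of these length classes were -0.84 and -0.05. Of these abundant genes, 2.42% of the shortest were called higher and 38.8% lower, against 9.96% and 6.06% of the longest. The median of abundant genes was negative in every length class, so the shares and median of all tested genes do not describe abundant genes. A part of length in the results below was not tested, and values for the ribosomal, respiratory and histone genes are given beside those of short genes.

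The 15 largest rises and 15 largest falls were then taken from called genes averaging 50 counts or more. Of the rises, 11 concerned genes without a single count in WT. Ifih1, a cytoplasmic sensor of viral RNA, had 175 counts in mCdx2-OE and 204 in rCdx2-OE, at least 47.5-fold higher than the 3 counts per library that a count of 0 allows. B3galt5, a glycosyltransferase, was at least 40.4-fold higher and Abcc8, the sulfonylurea receptor subunit of potassium channels, at least 39.6-fold. Hgf, hepatocyte growth factor, was at least 31.3-fold higher. Lamb3, a laminin chain of epithelial basement membranes, was at least 31.0-fold higher, with 121 and 126 counts. Fbxo32, Gnal, Mapk12, Scn3b, Sel1l3 and Steap4 made up the rest of these 11, with bounds from 25.3-fold for Sel1l3 to 38.6-fold for Mapk12. Dlx3, a homeobox factor of placental trophoblast, had 0 and 3 counts in WT against 985 and 1125, a ratio of 531 (95% counting interval 181 to 2577). The magnesium channel Trpm6, with 1 and 0 counts against 380 and 319, belongs to the same set. These genes were at or near 0 in both WT libraries and clearly present in both induced ones.

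Another of these rises, that of Chmp2b, concerned a housekeeping gene. This subunit of the ESCRT-III membrane-scission complex, used by every cell, had 3 and 1 rat counts in WT and 1825 and 1830 in the induced libraries, a ratio of 690 (95% counting interval 269 to 2533). Its mouse allele was counted 2630 and 2865 times in WT and 2840 and 2655 times in the induced libraries, so the WT cells expressed the gene from the mouse copy. The largest fall was the mirror image. Pigm, a mannosyltransferase of GPI-anchor synthesis, had 1752 and 2159 rat counts in WT and none in either induced library, at least 861-fold lower, while its mouse allele had between 1517 and 1930 counts in all 4 libraries. In each of these genes 1 group lacked the rat transcript and kept the mouse one.

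The other falls included genes of the posterior embryo and secreted peptides. Trh, the precursor of thyrotropin-releasing hormone, fell from 5948 and 6976 counts in WT to 26 and 22 (log2 fold change -8.47, SE 0.11, adjusted p = 7.40e-17). Tbxt, the brachyury factor of the primitive streak, fell from 2341 and 2356 to 11 and 24 (log2 fold change -7.47). The Wnt antagonist Dkk4 had 113 and 105 counts in WT and 1 and 2 in the induced libraries, and the opioid precursor Pdyn 543 and 612 against 15 and 12. Ct55, Rarres1, Best1 (a chloride channel of retinal pigment epithelium), Crip1, Mog, Tnni1, Agr2 and Adh7 fell with log2 values between -7.91 for Ct55 and -5.52 for Adh7. The hair keratins Krt31 and Krt34 complete the 15; Krt31 dropped from 816 and 800 counts to 0 and 2. Reads of keratin genes can be shared between near-identical members, and counts of single hair keratins are uncertain to that degree.

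Many genes of the trophoblast lineage rose. Of 15 tested transcription factors of trophoblast stem cells, 9 rose and 2 fell, and their median log2 fold change was 1.72. Some lists outside trophoblast had higher medians, among them intestinal epithelium (2.35), endothelial and blood genes (2.10) and integrins (2.03), and others had lower ones. Gata2 and Gata3, zinc-finger factors that drive trophoblast genes, rose from 28 and 50 to 3730 and 5050 counts and from 2 and 4 to 332 and 380 counts. Their log2 fold changes were 6.40 (SE 0.17, adjusted p = 8.04e-14) and 6.43 (SE 0.31, adjusted p = 3.15e-11). Tfap2c, an AP-2 factor required for trophoblast self-renewal, was counted 303 and 304 times in WT and 6809 and 5815 times in Cdx2-OE (log2 fold change 3.97). Hand1, a factor of trophoblast giant cells, had 1 and 0 counts in WT and 128 and 143 in the induced libraries. Elf3, an epithelial Ets factor, rose by a log2 of 3.55. Counts of Elf5, a gatekeeper of the trophoblast stem cell state, were low at 13 and 17 in WT, 77 in mCdx2-OE and 45 in rCdx2-OE (log2 fold change 1.61, adjusted p = 0.000863). Ascl2, needed for the spongiotrophoblast, had 4 and 4 counts in WT, 44 in mCdx2-OE and 20 in rCdx2-OE (log2 fold change 2.56, adjusted p = 0.000646). The groups did not overlap for either gene, and for both the count was higher in mCdx2-OE than in rCdx2-OE.

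Not every member of that list rose. Eomes, a T-box factor of trophoblast stem cells, had 647, 662, 865 and 987 counts, a log2 fold change of 0.09 with an adjusted p of 0.361. Tead4, the Hippo-pathway factor upstream of Cdx2, had a log2 fold change of -0.92 and was not called. Klf5 and Tfap2a fell by 2.50 and 1.33 on the log2 scale. Of the 28 markers of later placental trophoblast, 9 were tested and 6 were higher, with a median of 3.70. The summed level of this list was nevertheless 659 and 671 CPM in WT and 574 and 575 CPM in Cdx2-OE, since it was mostly that of the uncalled homeobox gene Rhox5, at 560 CPM in WT and 421 CPM in Cdx2-OE. Gcm1, the factor that starts syncytiotrophoblast formation, had 2 and 2 counts in WT and 667 and 941 in the induced libraries, a ratio of 303 (95% counting interval 118 to 1115). Krt7, a keratin of simple epithelia and trophoblast, rose from 21 and 17 to 618 and 822 counts, Cdh3, placental cadherin, from 19 and 46 to 545 and 576, and Cyp11a1, the first enzyme of steroid synthesis, from 3 and 6 to 270 and 250. In contrast, hormones of mature placenta were absent: none of the 22 prolactin family genes in the table passed the filter, and Tpbpa, the marker of the spongiotrophoblast, had 0 counts in 3 libraries and 1 in rCdx2-OE.

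**Figure D2:**
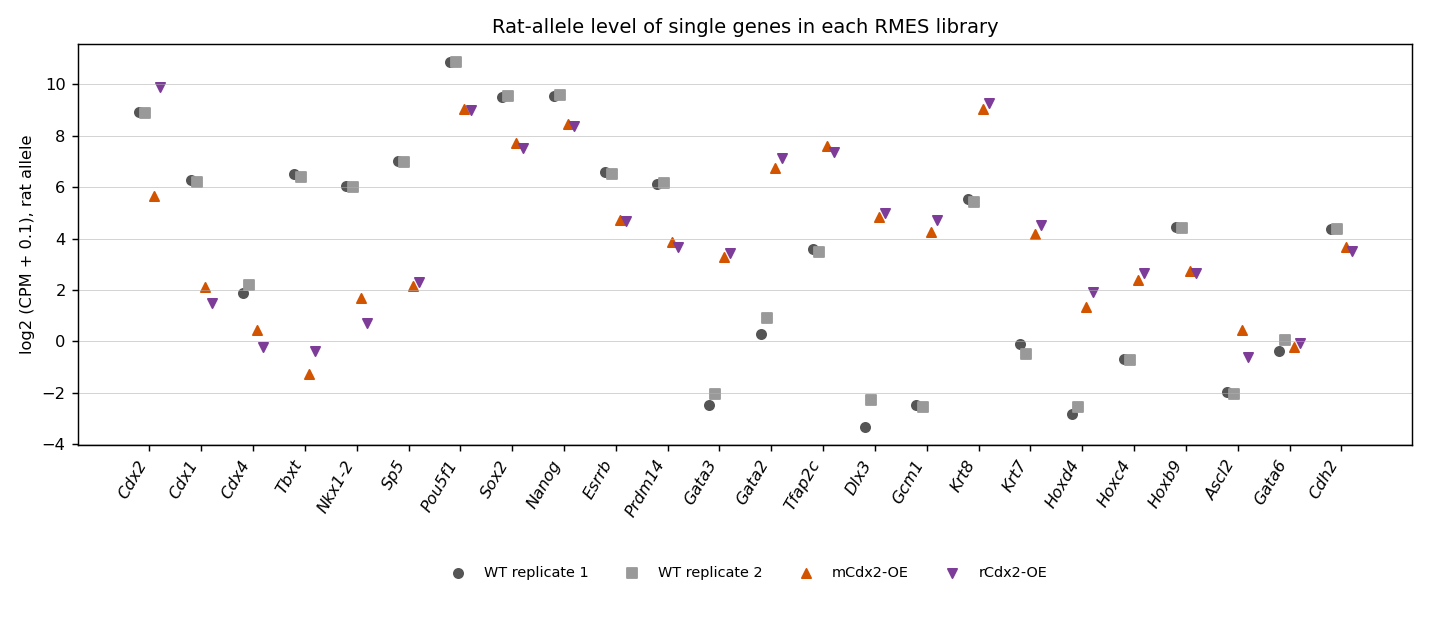
Rat-allele level of 24 genes in each library as log2 (CPM + 0.1); circles and squares are WT replicates 1 and 2, upward triangles mCdx2-OE and downward triangles rCdx2-OE. The induced libraries lie together and apart from WT for nearly every gene shown, except Cdx2, where mCdx2-OE is below WT and rCdx2-OE above it, and Gata6 and Cdh2, where all 4 libraries lie close together.

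Among 7 tested GATA factors and cofactors 5 were higher, with a median of 1.79. The endoderm factors differed from each other, since Gata4 rose from 5 and 5 to 57 and 78 counts (log2 fold change 3.32) whereas Gata6 had 17 and 26 counts in WT and 26 and 30 in the induced libraries (log2 fold change -0.02, adjusted p = 0.958). The SE for Gata6 was 0.36 at these low counts. Of 8 tested keratins of simple and stratified epithelia, 5 rose and 2 fell. Krt8 rose from 1173 and 1179 to 18241 and 22159 counts (log2 fold change 3.69, SE 0.09, adjusted p = 2.17e-14), while its partner Krt18 had 6634 and 6897 counts in WT and 9971 and 11597 in Cdx2-OE and changed by less than 2-fold (log2 fold change 0.26). Krt19, another simple-epithelial keratin, fell by 1.88 on the log2 scale.

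Pluripotency genes moved the other way. All 3 core factors fell, with a median log2 fold change of -1.85. Pou5f1 (Oct4) went from 1862 ± 4.37 CPM in WT to 517 ± 13.1 CPM in Cdx2-OE (SD, n = 2 each), a log2 fold change of -1.85 (SE 0.06, adjusted p = 5.31e-13). Sox2 went from 748 ± 13.7 to 196 ± 17.8 CPM (log2 fold change -1.93, adjusted p = 1.60e-12) and Nanog from 753 ± 19.9 to 347 ± 14.0 CPM (log2 fold change -1.12, adjusted p = 1.62e-10). Nanog was within 2-fold under the upper quartile (-0.91) and library totals (-0.69), which left 2 of the 3 core factors called. These transcripts remained abundant in the induced cells. Of 15 tested genes of naive pluripotency, 12 fell and none rose, with a median of -1.74. Tdh, threonine dehydrogenase, which mouse ES cells depend on, fell by 2.87, Nr5a2 by 2.80, Klf5 by 2.50 and Tcl1a by 2.44 on the log2 scale. Klf4 had 5522 and 6464 counts in WT, 5273 in mCdx2-OE and 3995 in rCdx2-OE, and its log2 fold change of -0.77 did not pass the fold threshold. Stat3, the effector of LIF, had a log2 fold change of 0.63 and was not called.

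Of 19 general pluripotency genes, 15 fell and none rose, with a median of -1.44. The RNA-binding protein Lin28a fell from 24478 and 26708 to 4788 and 3759 counts (log2 fold change -2.99) and the Nodal antagonist Lefty1 from 12940 and 14088 to 2230 and 1446 (-3.28). Of 12 genes of the formative and primed epiblast, 8 fell and 2 rose, with a median of -1.55. Etv4, Fgf19 (the ortholog of mouse Fgf15), Sox11 and Lef1 fell, with log2 fold changes of -4.58, -3.15, -2.65 and -1.85, while the claudin Cldn6 rose by 1.83. Otx2, a marker of the primed state, had no count in any library. Under library totals alone the general pluripotency list still had 10 lower and 0 higher members and the naive list 8 lower and 1 higher.

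The Hox clusters did not respond as a block. In the Hoxa cluster, Hoxa2, Hoxa4, Hoxa6, Hoxa7 and Hoxa11 had at most 18 counts in any library, and the highest of these were in WT. In the Hoxb cluster, 2 of 10 tested genes rose and 3 fell. Hoxb9, a gene of the posterior trunk, fell from 549 and 590 to 227 and 220 counts (log2 fold change -1.75) and Hoxb4 from 162 and 172 to 45 and 74 (-1.89). In contrast, 5 of 7 tested Hoxc genes and 5 of 6 tested Hoxd genes rose and none fell, with medians of 1.80 and 3.91. Hoxd4 went from 1 and 2 counts to 85 and 130, a ratio of 54.1 (95% counting interval 18.3 to 264). Hoxc4 went from 13 and 14 to 181 and 221 counts (log2 fold change 3.48, SE 0.27, adjusted p = 6.63e-09), Hoxd8 from 8 and 13 to 87 and 110 and Hoxc8 from 27 and 26 to 116 and 129. The summed level of the Hoxb list was 35.5 and 34.7 CPM in WT and 15.2 and 16.8 CPM in Cdx2-OE, and that of the Hoxd list 1.46 and 1.84 CPM in WT against 9.66 and 12.9 CPM.

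Among partners of Hox proteins, 4 of 11 tested TALE homeodomain factors rose and 1 fell. Meis3, Pknox2 and Meis1 rose, with log2 fold changes of 4.65, 3.51 and 2.26, and Tgif2 fell by 1.61. Of 21 other tested homeobox genes 14 rose and 1 fell, with a median of 2.00. Beside Dlx3, the Iroquois factors Irx4 (2 and 0 counts in WT against 192 and 183) and Irx3 (1 and 6 against 97 and 121) were among those that rose. The gene that fell, Nkx1-2, marks the caudal epiblast and went from 1689 and 1764 to 109 and 54 counts (log2 fold change -4.81).

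Genes of the primitive streak and posterior mesoderm split into both directions, with 10 of 24 tested genes higher, 9 lower and a median of 0.37. Beside Tbxt and Nkx1-2, the zinc-finger factor Sp5, a direct Wnt target, fell from 3286 and 3485 to 152 and 171 counts (log2 fold change -4.80, SE 0.09, adjusted p = 1.41e-15) and Fgf17, an FGF of the streak, had a log2 fold change of -3.84. The members that rose had low counts in WT and include Tbx4, a limb and allantois T-box gene (1 and 1 against 135 and 83), the Notch ligand Dll1 (5 and 4 against 204 and 274), and Foxf1, a factor of extraembryonic mesoderm (5 and 2 against 124 and 196). The summed level of the list was 572 to 594 CPM in WT and 118 CPM in each induced library. Eomes was not called, and the streak genes Mixl1 and Mesp1 had at most 1 count in any library.

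Wnt signalling acts through β-catenin and Tcf/Lef factors, and the GSK3 inhibitor in the medium keeps it active. Of 21 tested targets and feedback genes 7 rose and 7 fell, with a median of -0.39 that turned to 0.04 under library totals alone. Axin2, the standard readout of the pathway, fell from 8167 and 8479 to 2495 and 3119 counts (log2 fold change -1.98, SE 0.08, adjusted p = 4.96e-12). Tbxt, Dkk4, Sp5 and Cdx1 were the members that fell most. In contrast, the stem cell receptor Lgr5 rose from 2 and 2 to 149 and 168 counts, a ratio of 59.8 (95% counting interval 23.1 to 221), the antagonist Nkd2 by a log2 of 3.82, the repressor Tcf7l1 by 3.13 and Tcf7l2 by 2.78. Among 37 tested ligands, receptors and antagonists 17 rose and 5 fell, with a median of 0.90. Wnt7b (1 and 0 counts in WT against 99 and 92), Wnt4 (10 and 13 against 389 and 382) and Wnt9a rose, as did Porcn, the acyltransferase that lipidates Wnt proteins, by a log2 of 4.05. Wnt5b and Wnt3a fell by 3.81 and 3.55. Ctnnb1, which encodes β-catenin, had a log2 fold change of -0.55 and was not called.

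In the FGF pathway, 5 of 18 tested ligands and receptors rose and 4 fell, with a median of 0.50. Fgfr2, the receptor through which FGF4 maintains trophoblast stem cells, rose from 41 and 52 to 720 and 785 counts (log2 fold change 3.61, SE 0.15, adjusted p = 8.51e-12), and the decoy receptor Fgfrl1 by 3.48. Fgfr1 had between 9610 and 12562 counts in all libraries and was not called. Among 21 tested feedback targets of ERK, 8 rose and 8 fell, with a median of -0.19 that turned positive under both alternative scalings (0.02 and 0.24). The pathway inhibitor Spry4 fell by 4.67 on the log2 scale, the Ets factors Etv4, Etv1 and Etv5 by 4.58, 3.53 and 2.78, and Dusp6, the ERK phosphatase, from 621 and 706 to 207 and 126 counts. Egr1 rose from 4 and 3 to 205 and 137 counts.

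Of 15 tested LIF and Stat3 genes 4 rose and 4 fell, against 4 and 2 under the upper quartile and 5 and 1 under library totals. Osmr, the oncostatin M receptor, had 2 and 2 counts in WT and 198 and 256 in Cdx2-OE, and the feedback inhibitor Cish rose by a log2 of 3.61. In the Nodal and TGF-β list, 12 of 28 tested genes rose and 8 fell, with a median of 0.42. Beside Lefty1, the Nodal partner Foxh1 and the inhibitory Smad7 fell by 2.05 and 2.00, while the ligands Tgfb2 and Tgfb3 rose by 4.36 and 2.98. Smad2 and the receptor Tgfbr1 were not called, with log2 fold changes of -0.61 and -0.63. In the BMP list 9 of 26 genes rose and 3 fell, with a median of 0.60. Bmp4 fell from 4409 and 4820 to 886 and 861 counts (log2 fold change -2.81, SE 0.06, adjusted p = 1.71e-14) and its target Id3 by 2.22, whereas Id1 rose by 1.83 and the antagonist Chrd by 4.03. Targets of 1 pathway moved in different directions. Library totals alone gave 13 higher and 5 lower in the Nodal list and 14 higher and 3 lower in the BMP list.

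Most tested retinoic acid genes rose, with 14 of 22 tested genes higher, 2 lower and a median of 1.96. Stra8, a retinoid-induced gate of meiosis, went from 8 and 5 to 481 and 494 counts (log2 fold change 5.80, SE 0.25, adjusted p = 8.47e-12). The receptors Rara and Rarg rose by log2 values of 1.53 and 2.35. Rarb, itself a direct target of retinoic acid, had 2 and 5 counts in WT and 86 and 73 in Cdx2-OE. In the Notch list 8 of 22 genes rose and 3 fell (13 and 2 under library totals), with a median of 0.67. The ligand Jag1 fell from 2111 and 2508 to 299 and 234 counts (log2 fold change -3.52), while Dll1 rose by 5.29. In the Hedgehog list 4 of 12 genes rose and 1 fell. The transducer Smo rose by a log2 of 2.43 and the ligand Ihh fell by 3.02, and the target Ptch1 was not called (-0.60).

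**Figure D3:**
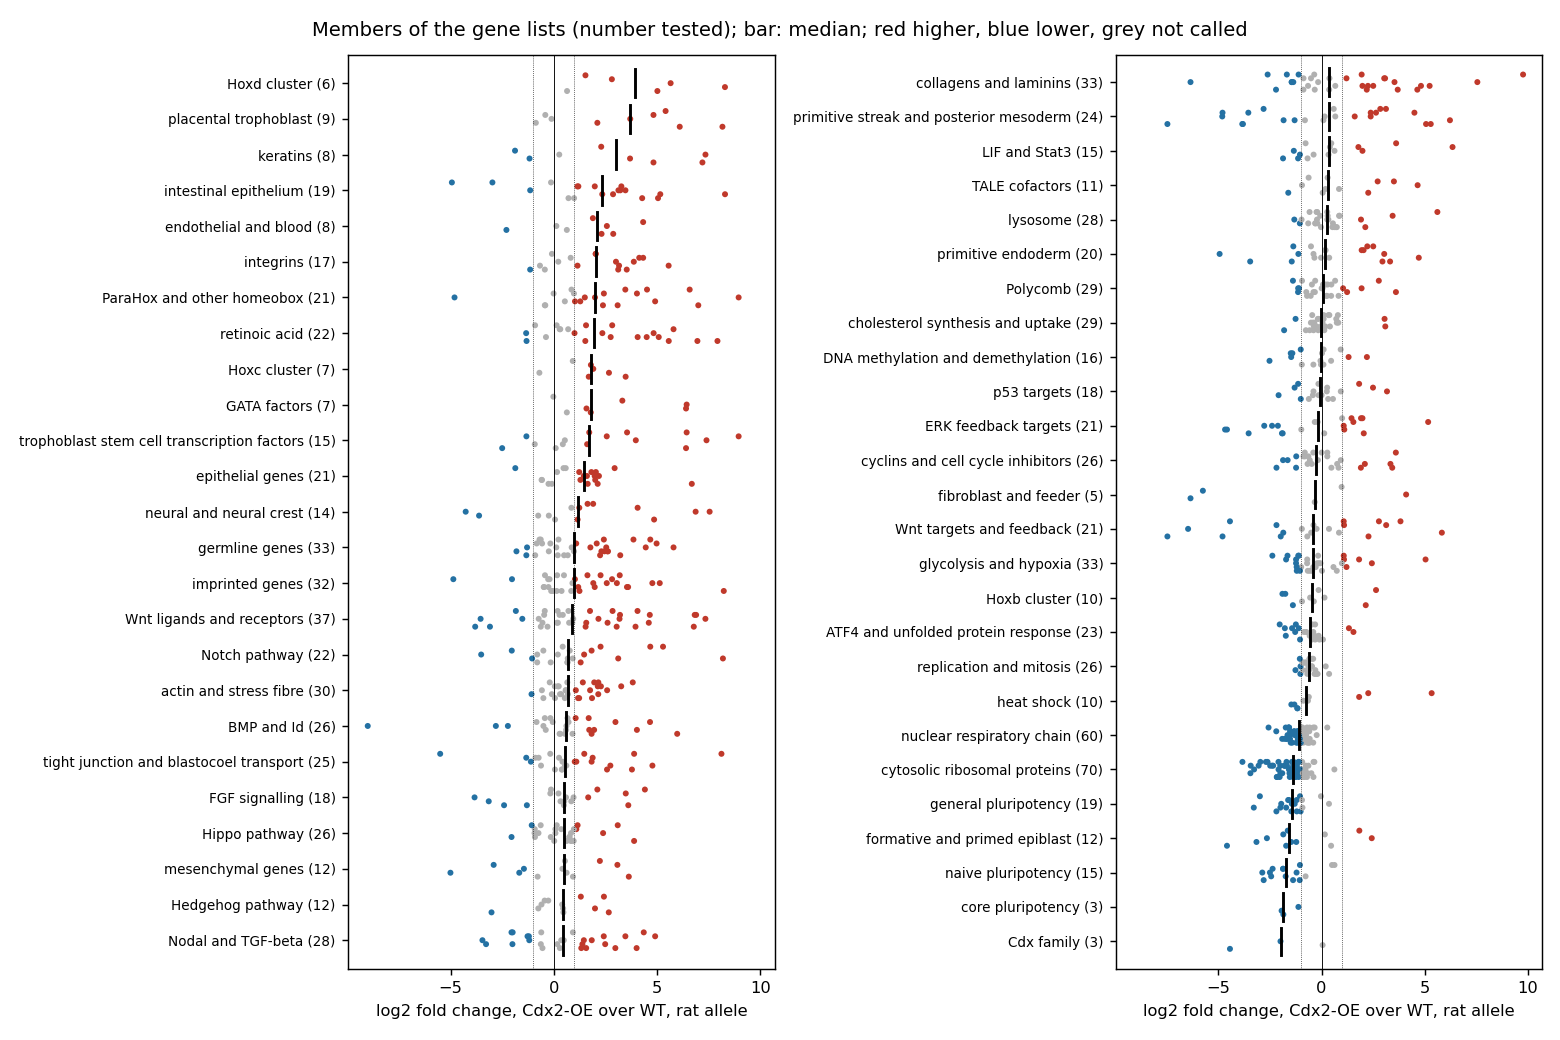
Log2 fold change of Cdx2-OE over WT on the rat allele for the tested members of each gene list with at least 3 tested members, ordered by the median (black bar), with the number tested in brackets; red points were called higher, blue lower and grey not called, and dotted lines mark 2-fold. Hoxd, placental and keratin genes have the highest medians, the Cdx family the lowest and the core and naive pluripotency genes the next lowest, and many lists hold members on both sides.

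Among epithelial and adhesion genes, several lists held more rises than falls, as did all tested genes together (28.4% higher and 14.2% lower). Not all of the best-known members of these lists were called. Of 21 tested epithelial genes 13 rose and 1 fell, with a median of 1.45. The desmosomal cadherin Dsc2 rose by a log2 of 2.95, desmoplakin (Dsp) by 2.19, plakoglobin (Jup) by 2.13 and the protease Prss8 by 2.04. The transcription factor Ovol2 was the exception, with a fall of 1.86. Cdh1, which encodes E-cadherin and is expressed in ES cells and trophoblast alike, had 503 ± 6.29 CPM in WT and 472 ± 4.53 CPM in Cdx2-OE (SD, n = 2 each) and was not called (log2 fold change -0.09, adjusted p = 0.157). Cdh2, N-cadherin, had 528 and 569 counts in WT and 436 and 408 in Cdx2-OE. Its log2 fold change of -0.78 (SE 0.11, adjusted p = 5.18e-06) passed the test but not the fold threshold. Of 25 tested genes of tight junctions and blastocoel transport 11 rose and 3 fell, with a median of 0.54. The junction adaptor Cgnl1 rose by 4.78, Crb3 by 3.89, cingulin (Cgn) by 3.78 and Cldn4 by 2.74, while the channels Aqp9 and Aqp3 and the sodium pump subunit Atp1b1 fell by 5.50, 1.33 and 1.11. Of 26 Hippo genes 5 rose, among them Amot, which holds Yap1 at junctions (3.10), the target Ankrd1 (3.89) and Tead3 (2.39), and 2 fell, among them Yap1 (-1.07). Yap1 was within 2-fold under the upper quartile (-0.86), library totals (-0.64) and the 3 CPM filter (-0.97). Library totals raised the count of higher Hippo genes to 13. Under TMM, 26.9% of Hippo genes were called, below the 42.5% of all tested genes.

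Among 30 actin and stress fibre genes 14 rose and 1 fell, with a median of 0.67. The tropomyosins Tpm2 and Tpm1 rose by 3.82 and 3.26, calponin 1 (Cnn1) by 2.58 and Cnn2 by 2.28, whereas smooth muscle actin (Acta2) fell by 1.08. Of 17 tested integrins 11 rose and 1 fell, with a median of 2.03. Itga3, a laminin receptor, rose from 26 and 36 to 1737 and 2157 counts (log2 fold change 5.56, SE 0.16, adjusted p = 1.05e-13), and the fibronectin receptor Itga5 from 74 and 93 to 2053 and 2396 (4.33). Integrin β1 (Itgb1) was not called (-0.67). Of 33 collagen and laminin genes 15 rose and 8 fell. Basement membrane collagens Col4a5 and Col4a1 rose by 5.24 and 3.04 and Lama5 by 1.98, while fibronectin (Fn1) fell from 114513 and 130086 to 58718 and 59989 counts (-1.45). Of 12 mesenchymal genes 3 rose and 4 fell. Snai2, a repressor of E-cadherin, rose by 3.08 and Vim, vimentin, fell by 1.67. Their median of 0.48 was positive although more members fell than rose, and library totals alone reversed that count to 5 higher and 4 lower.

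Markers of cell types other than trophoblast were also examined. Of 20 tested primitive endoderm genes 8 rose and 5 fell, with a median of 0.19. Dab2 (4.71), Col4a1, Pdgfra (2.95) and Sparc (2.50) rose and Hnf4a fell by 4.94. Sox17 and Sox7 had at most 56 counts and were not called, and Ttr had none. Of 19 tested intestinal genes, out of 35, 13 rose and 3 fell, with a median of 2.35. The serine protease Tmprss2 rose from 43 and 45 to 1959 and 2213 counts (log2 fold change 5.16, SE 0.12, adjusted p = 2.17e-14), the aminopeptidase Anpep by 3.47, the iron oxidase Heph by 3.27 and the brush-border cadherin Cdhr2 by 2.87. Cdh17, liver-intestine cadherin and a classical Cdx2 target, had no count in WT and 50 and 39 in Cdx2-OE, at least 11.2-fold higher. Other intestinal markers did not rise: Lgals4 fell by 1.14, and Hnf4a, given above, is also in this list. Vil1, which encodes villin, and Cldn15 were not called (0.98 and 0.71). The defining enterocyte genes Fabp1, Fabp2, Alpi and Slc26a3 had no count in any library. The summed level of the list was 57.3 and 55.4 CPM in WT and 190 and 205 CPM in Cdx2-OE.

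Of 14 tested neural genes 8 rose and 2 fell, with a median of 1.19. Map2 rose by 4.86 and Ncam1 by 4.06, while Stmn2 fell from 3965 and 4427 to 351 and 225 counts. Neurod1, Pax7 and Hes5 had no count in any library. Of 8 tested endothelial and blood genes 5 rose and 1 fell, with a median of 2.10, and the pan-leukocyte marker Ptprc had no count. Of 12 fibroblast or feeder markers 5 were tested. Thy1 rose from 16 and 18 to 349 and 427 counts, Col1a1 was not called (494 and 694 against 533 and 716), and Col3a1 and Postn fell from at most 49 counts to at most 1. Their summed level was 26.4 and 33.4 CPM in WT and 33.6 and 41.9 CPM in Cdx2-OE, and Dcn was at 0 in every library. In bulk RNA, fewer cells of a type and less RNA per cell cannot be told apart. The part of other cell types in these results was not tested.

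Transcripts of the protein synthesis and energy machinery fell together. None of 70 tested cytosolic ribosomal protein genes rose and 51 fell, with a median of -1.37. Rps28 went from 11359 and 11329 to 1476 and 1316 counts (log2 fold change -3.43, SE 0.08, adjusted p = 1.48e-14), Rps21 and Rpl36a fell by 3.27 and 3.05, and the long, abundant Rplp0 and Rpl4 had values of -0.84 and -0.76 that were not called. The summed level of the list was 66557 and 66102 CPM in WT, 30190 CPM in mCdx2-OE and 27822 CPM in rCdx2-OE. Under library totals alone, 32 were lower and 1 higher. Of 60 nuclear genes of the respiratory chain 35 fell and none rose, with a median of -1.10. Cox7c of complex IV fell by 2.57 and Ndufb4 of complex I by 2.19. Under library totals alone 15 were lower. Both lists hold short genes, with median lengths of 675.5 and 766.5 bases against 2350 over all tested genes. Abundant genes of the shortest class above had a median of -0.84. Because ribosomal protein genes have many near-identical processed copies, their counts are uncertain.

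Glycolysis and hypoxia genes gave 6 rises and 10 falls among 33, a balance that scaling reversed: 7 higher and 5 lower under upper-quartile scaling and 9 higher and 3 lower under library totals. The glycolytic enzyme Pgk1 fell from 52836 and 57277 to 15011 and 12963 counts (log2 fold change -2.38, SE 0.08, adjusted p = 4.40e-13), while the collagen prolyl hydroxylase P4ha2 rose by 5.04 and Aldoc by 2.44. Of 26 genes of replication and mitosis 4 fell, Pcna most with -1.26, and none rose. No member of that list was called under library totals alone. Of 26 cyclins and inhibitors 5 rose and 5 fell. The inhibitors Cdkn1c, Cdkn2a and Cdkn2b rose by 3.60, 3.42 and 3.34, and Ccnd1 and E2f2 fell by 2.18 and 1.86, but library totals alone gave 8 higher and 3 lower. Of 25 tested histone genes 18 fell and none rose, led among abundant members by H2afz (34153 and 37320 against 10155 and 8776 counts). Histone genes had a median length of 630 bases, against which all tested genes of up to 1350 bases had a median of -0.35. The libraries were made from mRNA, and many canonical histone transcripts carry no poly(A) tail.

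Stress and lipid pathways held members on both sides. The p53 list had 3 rises and 4 falls among 18 genes, and the balance was 4 higher against 2 and 1 lower under the other scalings. Btg2 rose by 3.17 and Pmaip1 fell by 2.08. The ATF4 and unfolded protein list had 2 rises and 8 falls among 23, with 6 falls under the upper quartile and 3 under library totals. The falls included the serine synthesis enzyme Psat1 (-1.73) and Sdf2l1 (-2.03). Among 10 heat shock genes 3 rose and 4 fell, a balance of 3 to 2 and 3 to 1 under the other scalings. The small heat shock proteins Hspb8 and Hspb1 rose by 5.33 and 2.26. Of 29 cholesterol genes only 4 were called (13.8%), 2 higher, among them Abcg1, and Abca1 and Acat2 lower, against 4 higher and 2 lower under the upper quartile and 6 and 1 under library totals. Of 28 lysosomal genes 4 rose, led by the sialidase Neu1 (30 and 24 against 1702 and 1810 counts), and 2 fell. The share of called cholesterol and lysosomal genes was below the 42.5% of all tested genes.

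Among 16 regulators of DNA methylation 2 rose and 5 fell. Tet1, the dioxygenase of ES cells, fell from 3738 and 4498 to 800 and 1100 counts (log2 fold change -2.52, SE 0.10, adjusted p = 5.06e-12), Dnmt3l and Dnmt3b fell by 1.49 and 1.47, and Tet2 and Mbd2 rose by 1.31 and 2.20. The balance of this list depended on scaling, with 3 higher and 4 lower under the upper quartile and 3 of each under library totals. Of 29 Polycomb genes 5 rose and 4 fell, against 6 higher and 1 lower under the upper quartile and 7 and 0 under library totals. The accessory subunit Phf19 rose by 3.60, and the catalytic Ezh2 was not called (-0.74). Of 33 tested germline genes 16 rose and 3 fell, with a median of 0.98. Tex101 rose from 150 and 174 to 5189 and 4201 counts, and the bromodomain protein Brdt by a log2 of 4.67, and the repressor Prdm1 had 3 and 3 against 144 and 115 counts, a ratio of 32.6 (95% counting interval 14.8 to 89.6), whereas Dazl fell by 1.33 and Ddx4 was not called (-0.24). Stra8, given above, also belongs to this list. Of 32 tested imprinted genes 16 rose and 2 fell, with a median of 0.96. Phlda2, a maternally expressed brake on placental growth, rose from 7 and 6 to 2708 and 2556 counts (log2 fold change 8.23, SE 0.16, adjusted p = 3.13e-15), and Osbpl5 and Magel2 by 5.13 and 4.77. Zdbf2 fell from 5159 and 6342 to 246 and 275 counts (-4.87) and Grb10 by 2.03. Whether each haploid genome was of maternal or paternal origin is not given in the sources used here.

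Gene families gathered by symbol showed the same mixture. Of 271 tested solute carriers 120 rose and 21 fell, with a median of 0.74; the sulfate transporter Slc13a4 rose from 4 and 5 to 467 and 676 counts, and the amino acid transporter Slc38a3 fell by 2.11. Cadherins (7 of 10 higher, 1 lower, median 2.82), Slit, Robo and netrin guidance genes (10 of 12 higher, 1 lower, median 2.89), clustered protocadherins (12 of 15 higher, none lower) and glutathione transferases (11 of 17 higher, 1 lower, median 2.09) had large shares of rises. The guidance ligand Ntn1 was the exception in its group, with a fall of 3.58 on the log2 scale. Among T-box factors 7 of 11 rose and 3 fell, and among Ets factors 6 of 18 rose and 4 fell. Connexins divided, as Gjb2 rose by 5.08 and the ES cell connexin Gja1 fell by 1.77 (4 higher and 5 lower of 12, or 5 and 4 under library totals). Aquaporins were mainly lower (4 of 7, 1 higher). Klf factors had 2 rises and 4 falls among 16, which library totals alone turned to 4 and 3. Zinc fingers named Zfp had 51 rises and 11 falls among 232 and a median of 0.10. Of 1087 olfactory receptor genes 5 passed the filter and 1 was called.

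The constructs were then set side by side without a test, since each had 1 library. Apart from Cdx2 itself, the induced libraries were close to each other. Of 12016 tested genes averaging 50 counts or more, mCdx2-OE exceeded rCdx2-OE more than 2-fold for 13 and rCdx2-OE exceeded mCdx2-OE for 5, Cdx2 included. The 13 include Tac1 (17 against 2 counts), Frzb (23 against 7), Fam169b (20 against 6), Pdzk1 (29 against 11) and Aqp9 (158 against 75), and all but 1 of the 13 were called lower in the pooled comparison. The 5 include Col20a1 (64 against 159), Adamtsl5 (79 against 192) and the retinol transporter Stra6 (64 against 136), all called higher. These examples were picked from their values. Of the 4148 genes called higher, 3954 were more than 2-fold above WT in mCdx2-OE alone and 4009 in rCdx2-OE alone. Of the 2069 called lower, 1843 and 2014 were more than 2-fold below WT. These shares follow in part from the call itself, which used the same induced libraries, and do not measure how alike the constructs are.

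The mouse allele of the same libraries served to ask how far the responses of the alleles differed. On the mouse allele 44.4% of 16858 tested genes were called, close to the 42.5% on the rat allele, with 28.3% higher and 16.1% lower. For 13615 genes with a shared symbol the difference in response was tested with the library as a block. It had an adjusted p under 0.05 for 8456 genes (62.1%), with a more positive response of the rat allele for 4339 (31.9%) and a more negative one for 4117 (30.2%). A difference over 2-fold was found for 24.8%. Of 12128 genes tested on both alleles, 2319 were called higher on both and 706 lower on both, while 888 were higher and 663 lower on the rat allele only by the call. Among genes averaging 50 counts or more on each allele, 113 had opposite calls and a significant difference, 62 of them higher on the rat and lower on the mouse allele. The chloride channel gene Best1 was the most divided of these, as its rat allele fell by 6.56 on the log2 scale and its mouse allele went from 0 and 1 to 86 and 144 counts. Fgfbp1, an FGF-binding protein in the placental list, rose by 2.11 on the rat allele and had -3.93 on the mouse allele, from 2207 and 2421 to 203 and 172 counts.

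Lineage genes singled out at the start responded to different degrees on the alleles. Gata3 rose by a log2 of 6.43 on the rat and 3.39 on the mouse allele, a difference of 3.08 (SE 0.48, adjusted p = 5.62e-06), from fewer WT counts on the rat allele (2 and 4 against 36 and 58). Pou5f1 had log2 fold changes of -1.85 on the rat and -2.32 on the mouse allele, and Sox2 of -1.93 and -1.48, differences of 0.49 and -0.44 that passed the test with adjusted p of 4.77e-14 and 2.59e-09. Cdh2 fell by 2.78 on the mouse allele, from 5475 and 6203 to 1065 and 1027 counts, and its rat allele differed from that by 2.02 (adjusted p = 8.40e-16). Cdx1 and Cdx4 differed by -0.44 and 1.15. The difference between alleles was not tested under upper-quartile scaling or library totals. On the rat allele alone, library totals moved the median log2 fold change by 0.43, so small differences may depend on scaling. For Ascl2 and Gata6 no difference was detected (0.53 ± 0.54 and 0.74 ± 0.42, estimate and SE).

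The genes with the 10 smallest p-values in each direction were taken from those called on the rat allele. Their differences between alleles ran in size from -1.19 for Ldha to 9.68 for Chmp2b. Hspb8 rose by 5.33 on the rat allele and had -0.17 on the mouse allele, which was already at 4101 and 4230 counts in WT, a difference of 5.53 (SE 0.08, adjusted p = 1.90e-24). The corepressor Bcor, Tfap2c and Elf3 also rose on the rat allele and had values under 2-fold on the mouse allele, where their WT counts were the higher ones. Tfap2c had 11.5 CPM on the rat and 156 CPM on the mouse allele in WT, against 180 and 188 CPM in Cdx2-OE. The paternally expressed gene Peg3 rose by 1.91 on the rat allele and had -0.09 on the mouse allele. Jup and Agtrap rose on the rat and fell on the mouse allele. In the other direction, Krt19 fell by 1.88 on the rat allele and rose by 4.58 on the mouse allele, from 145 and 146 to 3912 and 4716 counts. The germ cell and naive pluripotency gene Dppa3, the laminin chain Lamb1 and the lactate dehydrogenase Ldhb fell on the rat allele and rose on the mouse allele, where they were low in WT. Fn1, Ldha and Sdc4 fell on the rat allele and had 0.10, -0.03 and 0.26 on the mouse allele.

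**Figure D4:**
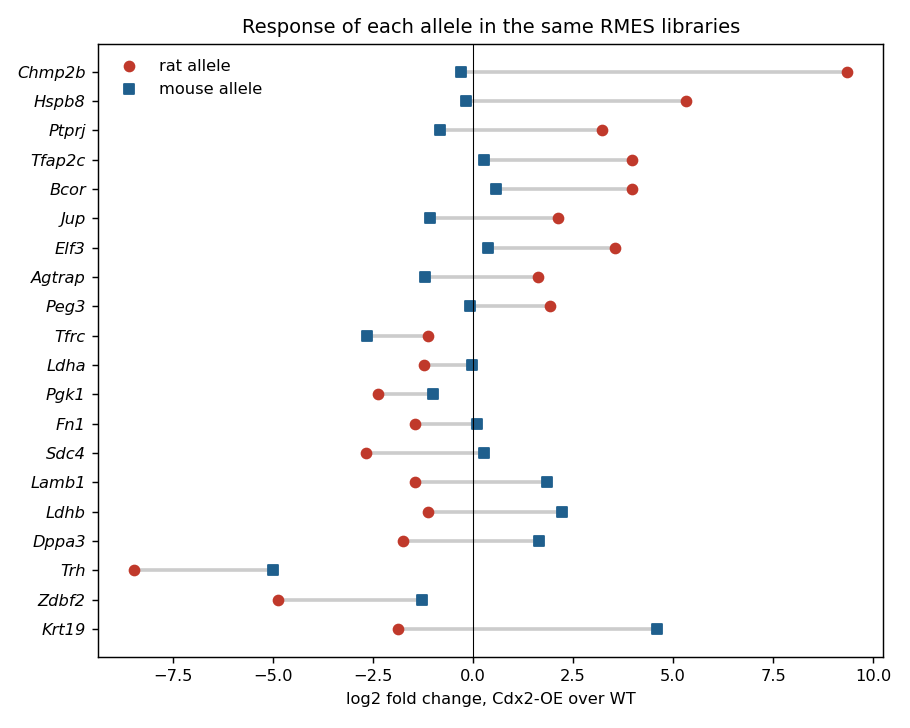
Log2 fold change of Cdx2-OE over WT on the rat allele (red circles) and on the mouse allele (blue squares) of the same libraries, for the 20 genes with the smallest p of the difference between alleles, 10 in each direction, ordered by that difference. Chmp2b, Hspb8, Tfap2c and Bcor rose on the rat allele and stayed within 2-fold on the mouse allele, and Krt19, Dppa3, Ldhb and Lamb1 moved in opposite directions.

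A rat change of more than 32-fold beside a mouse change under 2-fold was seen for 17 genes, 15 of them higher and 2 lower on the rat allele. The 15 include Hspb8, Chmp2b and Cyp11a1. The 2 lower genes are Pigm and Clic6, a chloride channel family member with 329 CPM on the rat and 2.20 CPM on the mouse allele in WT. The gap between the alleles was also measured within each library for the 10174 shared genes with at least 100 counts over both alleles in every library. In WT, 11.7% of these genes had alleles more than 8-fold apart in each replicate, and in Cdx2-OE 5.68% and 5.59% did. The rat allele was more than 8-fold above the mouse allele for 460 and 449 genes in WT and for 182 and 181 in Cdx2-OE, and the mouse allele was above the rat allele for 726 and 737 against 396 and 388. The median absolute gap was 0.70 and 0.69 on the log2 scale in WT and 0.50 and 0.49 in Cdx2-OE. Alleles were therefore further apart in both WT libraries than in either induced library. With 2 libraries a group an exact permutation test could not fall below p = 0.33, and none was made. These libraries are also the ones that differ in the species of their mitochondrial transcripts.

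**Figure D5:**
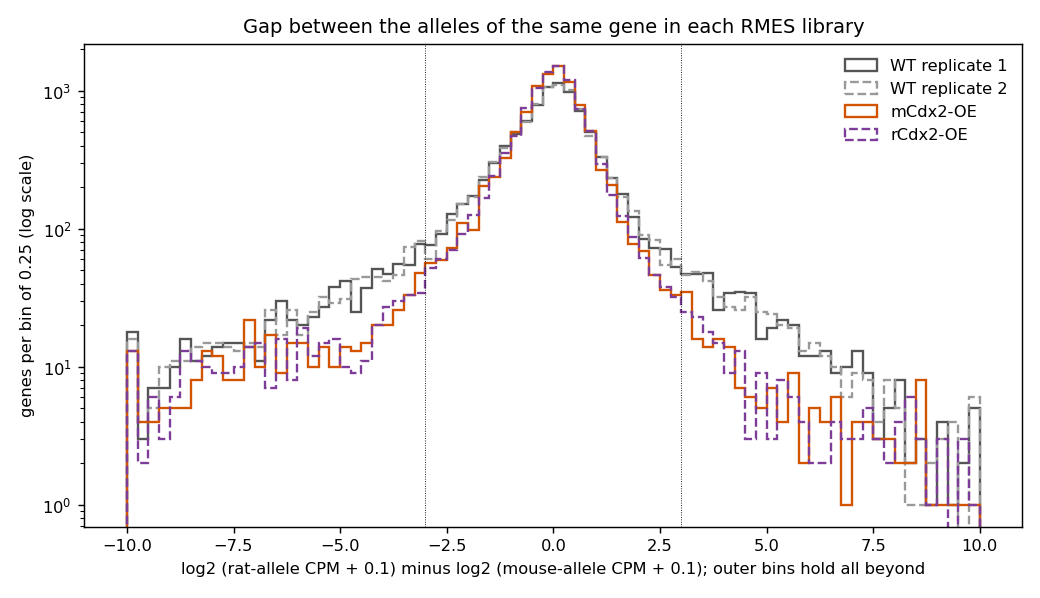
Number of genes (vertical axis, log scale) by the log2 ratio of rat-allele to mouse-allele CPM, each plus 0.1, within a library (horizontal axis), for 10174 genes in WT replicate 1 (dark grey), WT replicate 2 (light grey, dashed), mCdx2-OE (orange) and rCdx2-OE (purple, dashed); dotted lines mark 8-fold and the outermost bins hold all values beyond. Both WT curves lie above both Cdx2-OE curves beyond the dotted lines, with 11.7% of genes there against 5.68% and 5.59%.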

How the data were processed

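Per the labels and the study's methods, the authors aligned reads with STAR 2.7.0d to the mouse (mm10) and rat (rn6) genomes, assigned each read to the genome with the smaller edit distance, and deposited raw read counts per gene for each genome. The rat annotation release is not given in the sources used here. Division by species affects the counts: reads without differences between the genomes cannot be assigned, and near-identical copies share reads. The deposited table of RMES cells on rn6 was used, with the mm10 table for the comparison of alleles. Mitochondrial genes were left out. Genes passing filterByExpr were tested with edgeR 4.0.16 (TMM, quasi-likelihood, Benjamini-Hochberg adjustment over all tested genes; R 4.3.3). A gene was called at an adjusted p under 0.05 and an absolute log2 fold change over 1. The allele difference was an interaction term with the library as a block. Intervals and bounds (floor 3 counts per library) cover counting error only. The fit was tested on simulated data with equal numbers of rises and falls and a common dispersion. That test does not cover the uneven balance of the real data or the choice of scaling. Members and lists were chosen with earlier results of these data known. The text names Cdx genes and genes the study names; the 15 largest rises and falls averaging 50 counts or more, without overlap between groups, leaving out clone, locus and accession identifiers; up to 4 called members per list and direction with the largest changes (averaging 50 counts or more), 2 uncalled members with the highest counts, and defining markers near 0; and the 10 smallest p of the allele difference in each direction among genes called on the rat allele. Elf5, Gata4, Axin2, Wnt7b, Dusp6, Smad2, Rara, Rarg, Rarb, Ihh, Lama5, Sox17, Sox7, Cdh17, Ezh2, Ddx4, Clic6 and the examples of construct differences were chosen after seeing their values. Some genes that this rule names are not reported here.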

Additional observations from a re-analysis of the deposited data

Results flagged for a closer look

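The response of 8456 genes differed between the rat and mouse alleles by the interaction test. Listed here are the genes with the 10 smallest p-values in each direction and the Cdx and lineage genes that differed. Genes outside this selection also had large differences, such as -13.9 for Pigm, -13.8 for Best1 and 6.06 for Fgfbp1. Positive differences (rat minus mouse, log2) in the selection were 9.68 for Chmp2b, 5.53 for Hspb8, 4.06 for Ptprj, 3.72 for Tfap2c, 3.41 for Bcor, 3.21 for Jup, 3.19 for Elf3, 3.08 for Gata3, 2.84 for Agtrap, 2.02 for Peg3, 2.02 for Cdh2, 1.55 for Tfrc, 1.15 for Cdx4 and 0.49 for Pou5f1. Negative differences were -6.44 for Krt19, -3.56 for Zdbf2, -3.44 for Trh, -3.37 for Dppa3, -3.34 for Ldhb, -3.26 for Lamb1, -2.92 for Sdc4, -1.53 for Fn1, -1.35 for Pgk1, -1.19 for Ldha, -0.44 for Cdx1 and -0.44 for Sox2. These values stand out because the test of the difference itself passed, although 62.1% of all genes tested did so.

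Rat mitochondrial genes, which the main comparisons left out, took 14.3% of rat-genome counts in mCdx2-OE and 14.0% in rCdx2-OE, above the level in WT. On the mouse genome the order was opposite, with 2.32% and 2.65% in WT against 0.0313% in mCdx2-OE and 0.0259% in rCdx2-OE.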

How the results depend on the processing

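The count of 6217 called genes was 6244 with RLE, 6129 with upper-quartile scaling, 5921 with DESeq2, 6669 without a filter, 5016 when the fold threshold was part of the test, 6218 with mitochondrial genes kept and 6220 with the constructs as separate groups. A filter at a mean of 3 CPM gave 4015 (2647 higher, 1368 lower, from fewer genes tested), no fold threshold gave 12067 (6357 higher, 5710 lower), and library totals gave 1065 lower. Leaving out 1 library at a time gave 5993 to 6374 calls, 4031 to 4193 higher and 1962 to 2274 lower; a lone remaining library is then assumed to vary like the others. The rat Cdx2 value turned to -1.13 with separate groups and to -3.24 without rCdx2-OE, and was 0.98 without mCdx2-OE, as the constructs differ in species. Differences between alleles numbered 8524 with RLE, 7387 without the library block, 8255 with a filter on each allele and 7232 to 8262 with 1 library left out, and the 20 differences named for their p-values kept their side of the threshold throughout. Of 621 named genes, 65 lost and 23 gained a call under library totals, 33 and 7 under the upper quartile, and 13 lost it without rCdx2-OE, among them Atp1b1 (-0.99). Acat2, Acta2, Aqp3, Atp1b1, Dazl, Ldha, Ldhb, Lgals4, Nanog, Pcna, Tfap2a and Yap1 are the genes described above that lost it under library totals. Stat3 (1.06), Vil1 (1.41) and Cldn15 (1.14) gained it. No paired analysis was possible because the induced groups hold 1 library each and share no numbered replicates with WT. Genes under a few counts in WT are limited by depth.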
